A study of Mus musculus with 8 samples.

Results

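Stretches of the mouse genome whose timing, averaged over all profiles, is neither clearly early nor clearly late, and that lie off the steep ramps between early and late domains, were described in embryonic stem cells with and without auxin-induced depletion of CTCF. The unit was a 50-kb bin of an autosome that held at least 3 windows of the deposited timing scores. Bins were chosen by the mean of all 4 profiles: the mean score of the bin lay from -0.5 to 0.5, and the mean scores of the bins 100 kb to either side differed by less than 4 score units per Mb. The rule selected 1886 of 42710 bins (94.3 Mb), which is 39.5% of the 4771 autosomal middle bins. A further 2822 middle bins (59.1%) lay on steeper stretches and 63 had no slope. The score level and slope that chose the bins are given below only as a description. The difference between auxin and control was not used in the choice. Only the average is middle: in single profiles 20.7% and 20.7% (auxin) and 19.8% and 24.3% (control) of the bins scored outside -0.5 to 0.5, and by the control mean 191 bins were early and 157 late.

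All profiles came from E14Tg2a cells, a male mouse embryonic stem cell line on a 129/Ola background, or a subclone of it, with an auxin-inducible degron on CTCF. The labels do not say whether the line was 1 clone. The auxin group had 2 days of indole-3-acetic acid, a natural auxin, at 500 µM, and the control group was the same cells without auxin. In Repli-seq, cells are pulsed with BrdU, here for 2 hours, sorted into early and late S phase, and the labelled DNA of each fraction is sequenced. The 8 libraries formed 4 profiles, 2 per group, scored at 316864 windows, mostly on a 6-kb grid of the mm10 build, with higher scores earlier and a genome-wide SD of 2.1. No read counts per profile were used here, which leaves the depth unknown. Whether replicates were separate cultures is not stated in the labels, and p-values therefore reflect only how far these samples differ, perhaps for technical reasons. No cells without the degron were given auxin, and CTCF protein was not measured, so effects of auxin and of CTCF loss cannot be told apart. Expression was not measured either. Of the stem cell marker genes, Pou5f1, Nanog, Sox2, Zfp42, Esrrb and Klf4 could be placed, and all of them lay in early bins, with mean scores from 1.97 to 3.15.

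Mammalian chromosomes replicate in large domains whose origins fire at similar times, and domains of different timing are joined by transition regions crossed by forks that move the same way. Stretches of intermediate timing can be broad zones replicated in mid S phase, small domains whose local initiation comes before that of later surroundings, or the last-replicated part between converging earlier domains. CTCF binds insulator sites and, with cohesin, sets the anchors of chromatin loops and the borders of many topological domains.

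The promoters of 4 genes inside bins whose timing moved are shown. Their runs were among those with the largest later and earlier shifts, and the promoters differ in CpG content. The Pde4d bin, which moved later by slightly more than the Cyria run, was left out. Sequences are from RefSeq on GRCm38.p6 and run 5' to 3' on the gene's strand, from 250 bases before to 50 bases after the start, with CpG dinucleotides in capitals. Dapk1 (chr13:60601961-60602260, plus strand, 38 CpG) and Cyria (chr12:12261927-12262226, plus strand, 22 CpG) lay in bins that moved later. Bpifa2 (chr2:154008026-154008325, plus strand, 2 CpG) and Epha4 (chr1:77515039-77515338, minus strand, 17 CpG) lay in bins that moved earlier.
Dapk1: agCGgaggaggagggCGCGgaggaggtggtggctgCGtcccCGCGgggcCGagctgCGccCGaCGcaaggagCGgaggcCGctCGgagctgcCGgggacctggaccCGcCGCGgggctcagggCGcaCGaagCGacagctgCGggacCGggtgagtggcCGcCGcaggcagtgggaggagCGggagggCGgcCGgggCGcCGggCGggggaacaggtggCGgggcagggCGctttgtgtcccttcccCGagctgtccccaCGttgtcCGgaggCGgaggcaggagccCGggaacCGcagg
Cyria: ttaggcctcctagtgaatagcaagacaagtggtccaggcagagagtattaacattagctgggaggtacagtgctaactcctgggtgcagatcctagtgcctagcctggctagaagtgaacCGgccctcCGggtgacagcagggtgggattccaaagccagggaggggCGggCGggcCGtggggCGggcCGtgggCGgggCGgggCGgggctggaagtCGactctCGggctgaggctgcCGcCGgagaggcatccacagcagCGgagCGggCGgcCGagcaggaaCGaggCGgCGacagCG
Bpifa2: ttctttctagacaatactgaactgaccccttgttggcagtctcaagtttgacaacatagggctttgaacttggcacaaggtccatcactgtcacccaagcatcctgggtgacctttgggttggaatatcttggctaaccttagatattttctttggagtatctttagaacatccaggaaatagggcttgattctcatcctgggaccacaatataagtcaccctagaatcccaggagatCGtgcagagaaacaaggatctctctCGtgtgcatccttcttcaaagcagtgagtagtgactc
Epha4: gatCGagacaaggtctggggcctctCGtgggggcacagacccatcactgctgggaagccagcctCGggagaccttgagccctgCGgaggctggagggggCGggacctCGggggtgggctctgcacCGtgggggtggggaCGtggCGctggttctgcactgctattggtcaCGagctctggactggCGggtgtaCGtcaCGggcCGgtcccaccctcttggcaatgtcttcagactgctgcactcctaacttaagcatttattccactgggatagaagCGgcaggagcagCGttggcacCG
None of the 4 windows held the letters AGGNGGCA, part of the known CTCF motif, on either strand. A search of letters says nothing of whether the protein binds there.

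Flat middle bins formed 583 runs of adjacent bins, with a median length of 100 kb and a longest run of 900 kb. Runs of a single bin numbered 161, while 169 runs of 4 or more bins held 1108 bins (58.7%). The nearest early bin lay a median of 250 kb away and the nearest late bin 200 kb away, against 100 kb each for steep middle bins. Of the flat bins, 13.2% adjoined an early bin and 13.5% a late one, against 40.2% and 42.9% of steep middle bins. The slope limit was bound to shape these distances, so they are description only. The flat middle bins took 8.11% of the bins of chromosome 13 (174 bins) and 6.53% of chromosome 1 (211 bins), and their share was lowest on chromosome 16, at 2.43% (37 bins).

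The longest runs spanned several genes, with mean scores near 0 by the rule. On chromosome 10 (8050001 to 8900000), an 850-kb run with the sulfotransferase gene Ust and Sash1 scored 0.16 and 0.097 with auxin and 0.16 and 0.016 without. Groups overlapped there. The imprinted Dlk1 and Rtl1 genes lay in an 800-kb run on chromosome 12 (109250001 to 110050000), which scored -0.025 and -0.0054 with auxin and -0.097 and -0.062 in controls. The groups were apart by 0.064 on average, and no bin of the 16 was called. Dlk1 encodes a membrane protein related to Notch ligands and Rtl1 a retrotransposon-derived protein needed in the placenta. The chromatin protein gene Hmga2 lay in another 800-kb run, on chromosome 10 (120350001 to 121150000), with -0.0053 and -0.020 against 0.11 and 0.049, lower in both auxin profiles and again with no bin called.

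**Figure D1:**
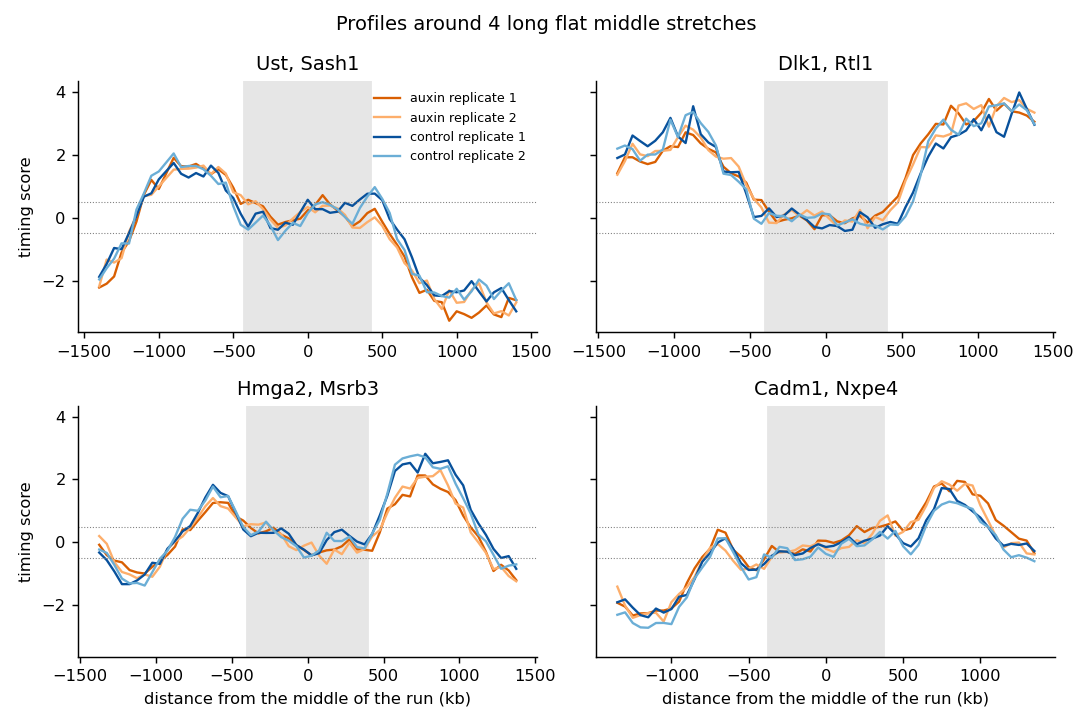
Timing score (score units, higher is earlier) against distance from the middle of the run (kb) for 4 of the longest runs of flat middle bins, 1 line per profile, with the run shaded and dotted lines at -0.5 and 0.5. Within runs of 750 to 850 kb single bins ranged from -0.71 to 0.76 in single profiles, and all stayed within -0.42 to 0.30 at Dlk1, whose run sat between earlier flanks on both sides.

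Among the other long runs, Cadm1, a cell adhesion gene, lay in 750 kb on chromosome 9 (47800001 to 48550000) that scored 0.038 and -0.091 with auxin and -0.12 and -0.20 without. The 750-kb run with Elmo1, a regulator of Rac-driven migration, and Aoah on chromosome 13 (20200001 to 20950000) scored 0.32 and 0.19 with auxin and -0.22 and -0.27 in controls. Both auxin profiles were higher, by 0.50 on average, and 2 of its 15 bins were called earlier (20650001 to 20750000). The other direction was seen on chromosome 8 (60950001 to 61600000), in the 650-kb run with Clcn3 and the kinase gene Nek1. It scored -0.029 and -0.057 with auxin against 0.44 and 0.39. None of its 13 bins was called, with the lowest adjusted p at 0.131 (limma). At the muscle factor gene Mef2a and the growth factor receptor gene Igf1r on chromosome 7 (67350001 to 68100000), the scores were -0.18 and -0.041 with auxin and 0.17 and 0.15 without, again with no bin called.

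In gene cover and promoter CpG content, flat middle bins lay between flat early and flat late bins. Protein-coding genes covered 50.1% of them on average, against 44.2% of steep middle, 61.7% of flat early and 37.5% of flat late bins. No protein-coding gene overlapped 30.8% of flat middle bins, against 38.1%, 13.3% and 50.6%. Without chromosome 18, for which no starts were given, placed transcription starts numbered 6.71 per Mb, against 5.72, 15.4 and 3.25 per Mb. The 614 genes that start in flat middle bins had a median length of 28.7 kb, against 21.1 kb for 773 genes in steep middle bins 17.7 kb for genes in flat early bins and 20.6 kb in flat late bins, so in this they did not lie between the classes. Their 769 promoter windows of 300 bases had a median GC content of 56.7% and a median of 14 CpG, and 60.2% held 10 or more CpG. In steep middle, flat early and flat late bins that share was 48.1%, 71.0% and 41.5%. The letters AGGNGGCA, searched on both strands, were in 55 (7.15%) of the windows, against 7.13% of all 21263. Among windows in bins that moved later, 5 of 27 held them, and among those in bins that moved earlier, 0 of 9. Windows of 1 gene can overlap, so these counts are not of separate genes.

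The comparison of auxin with control cells asked whether depleting CTCF shifts the replication time of these stretches. Of the 1886 flat middle bins, 58 (3.08%) moved later with auxin and 32 (1.70%) earlier (limma over all 42710 bins, Benjamini-Hochberg adjusted p under 0.05). Over all bins, 1.02% moved later and 0.637% earlier. Steep middle bins had 48 (1.70%) later and 28 (0.992%) earlier calls, flat early bins 0.606% and 0.558%, and flat late bins 0.927% and 0.385%. Later bins differed by -1.97 to -0.97 (median -1.22, adjusted p from 0.0271 to 0.0494), and earlier bins by 0.98 to 1.50 (median 1.11, adjusted p from 0.0303 to 0.0491). The standard errors of these differences were 0.205 to 0.268. An unadjusted limma p under 0.05 was reached by 31.0% of flat middle bins, against 27.7% of steep middle bins and 21.7% of all bins. With limma's trended and robust variances, 264 (14.0%) moved later and 212 (11.2%) earlier. In that fit the shares were 10.5% and 10.8% of steep middle bins, and 5.66% and 5.17% of all bins. The earlier share was thus close to that of steep middle bins. All 90 bins of the untrended fit were also called there. Taking the median of a bin's windows left 30 later and 5 earlier, and keeping bins of fewer than 3 windows in the fit left 0 and 0 (limma, 293 and 241 at an unadjusted p under 0.05). Leaving out auxin replicate 1, auxin replicate 2 or control replicate 2 left 0 calls in either direction, while 206 to 251 bins later and 163 to 199 earlier had an unadjusted limma p under 0.05. Without control replicate 1 there were 16 later and 4 earlier calls.

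**Figure D2:**
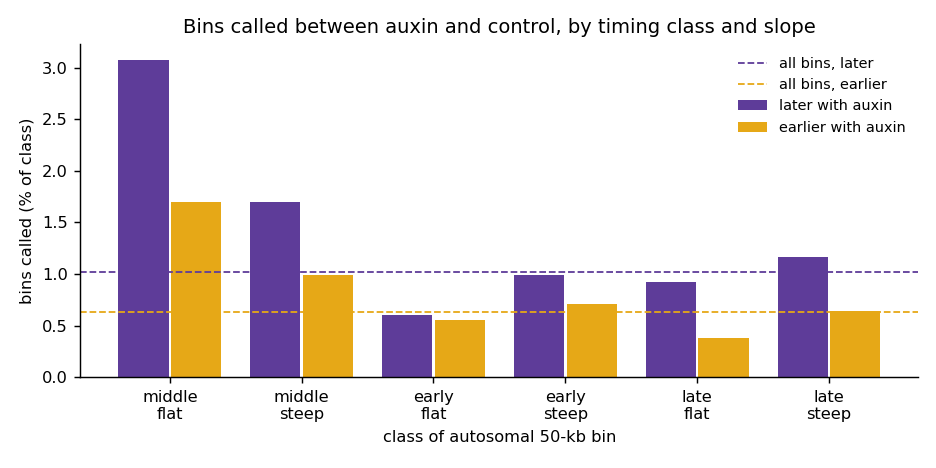
Share of 50-kb autosomal bins (%) called later (purple) or earlier (yellow) with auxin by limma at adjusted p under 0.05, in each class of timing and slope, with dashed lines for all bins. Flat middle bins stand at 3.08% later and 1.70% earlier, above 1.02% and 0.637% over all bins.

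Both auxin profiles scored below both controls in 651 flat middle bins (34.5%) and above both in 623 (33.0%), against 26.1% and 26.4% of all bins. Steep middle bins had 32.2% below and 34.5% above, so shares of this size were not particular to flat stretches. The differences centred near 0, with a median of -0.0062, and the 10th and 90th percentiles were -0.66 and 0.59. Their median size was 0.326, against 0.292 in steep middle bins and 0.273 over all bins. Between replicates, the median size was 0.179 with auxin and 0.171 without, lower than the 0.213 and 0.239 over all bins. In steep middle bins it was similar, at 0.167 and 0.175. A difference of 1 or more between group means was seen in 104 flat middle bins (5.51%, against 2.05% of all bins). The auxin replicates differed that far in 0 bins and the control replicates in 1. A mean of 2 profiles varies less than a single profile, so group and replicate differences are not on the same footing.

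Over all flat middle bins, the median score was 0.011 and -0.0016 with auxin and 0.016 and 0.012 in controls. Both auxin medians were below both controls, with a difference of -0.0094 (exact permutation test over profiles, two-sided p = 0.333, the smallest that 2 against 2 can give). The spread of scores over the bins did not separate the groups, with SDs of 0.399 and 0.399 with auxin and 0.384 and 0.419 without (exact p = 1). Local slopes had a median size of 1.92 and 1.89 per Mb with auxin and 1.99 and 2.15 per Mb in controls, a difference of -0.17 per Mb (exact p = 0.333). Slopes of steep middle bins showed the same order, with 6.92 and 7.05 per Mb against 7.64 and 8.38 per Mb. Control replicate 2 had the largest slopes in both classes. Quantile normalization gives each profile the same distribution, so a shift shared by the whole genome would not be seen.

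The flat middle bins did not all lie on plateaus. By comparison with the mean score 200 kb to either side, 449 (23.8%) were local peaks, higher than both flanks by over 0.25, and 343 (18.2%) were local valleys, lower than both by over 0.25. Another 387 lay on the shoulder of a slope, 84 were level with both flanks, 606 were level with 1 flank only and 17 had no flank score. These limits were chosen after the data had been seen, but use the mean of all 4 profiles and not the group difference. A local peak is replicated earlier than its surroundings and a local valley later.

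Calls at peaks and valleys lay mostly in opposite directions. Of the peaks, 30 (6.68%) moved later and 2 (0.445%) earlier, while 18 valleys (5.25%) moved earlier and 5 (1.46%) later (limma, adjusted p under 0.05, against 1.02% later and 0.637% earlier over all bins). The median score of the peaks was -0.12 and -0.13 with auxin and 0.072 and 0.22 in controls. Both auxin profiles were lower, with a difference of -0.27 (exact permutation p = 0.333, the smallest possible). Valleys had medians of 0.077 and 0.071 with auxin and -0.11 and -0.25 in controls, so both auxin profiles were higher, by 0.25 on average (exact p = 0.333). The median peak minus the median valley was -0.20 in each auxin profile and 0.18 and 0.47 in controls. The rule holds the mean of all profiles near 0 for both shapes, so a difference of this size has to put the groups on opposite sides. Shoulders, level bins and bins with 1 level flank overlapped between groups in their medians.

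Relative to flanks 200 kb away, peaks stood 0.859 and 0.883 high with auxin and 0.951 and 1.07 in controls. Valleys were 0.738 and 0.740 deep with auxin and 0.906 and 0.972 in controls. Both measures were smaller in both auxin profiles, and largest in control replicate 2, the profile with the steepest slopes. The difference in peak height was -0.139, and -0.0794 without that profile. The difference in valley depth was -0.200, and -0.168 without it. The differences of the median scores were -0.20 for peaks and 0.18 for valleys without it. The part that the slopes play in these differences was not tested. Leaving out 1 profile reduced the calls to 0 to 7 peaks later and 0 to 2 valleys earlier, with 0 of either without auxin replicate 1, auxin replicate 2 or control replicate 2 (93 to 103 peaks and 65 to 71 valleys at an unadjusted limma p under 0.05).

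**Figure D3:**
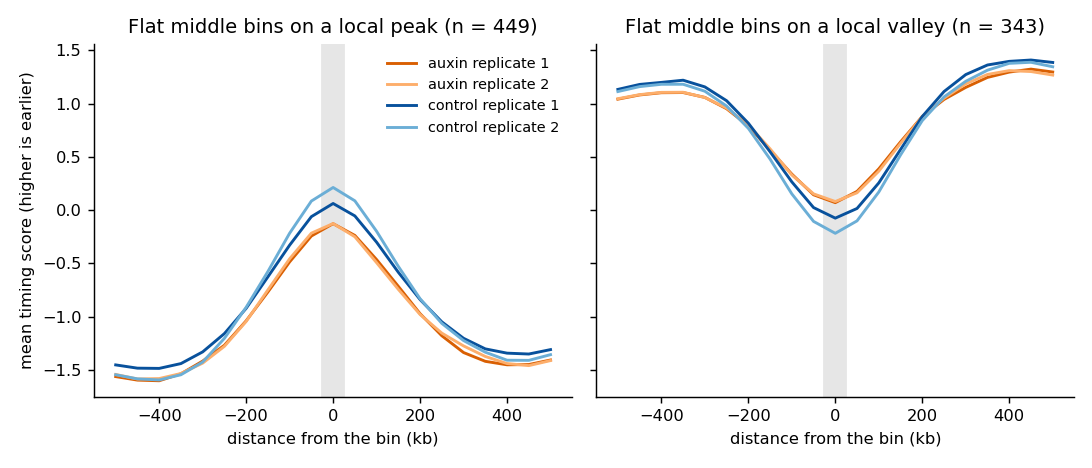
Mean timing score (score units, higher is earlier) against distance from the bin (kb) for flat middle bins on a local peak (n = 449) or a local valley (n = 343), 1 line per profile, with the bin shaded. At the peaks both auxin profiles lie below both controls, and at the valleys above them.

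The same opposition was present in the early and late classes. Of 2106 peaks in flat early bins, 31 moved later and 8 earlier, and of 877 valleys, 22 moved earlier. Flat late bins had 29 later and 1 earlier calls in 973 peaks, and 4 later and 17 earlier in 1840 valleys. Peaks were called later in 1.47% of flat early and 2.98% of flat late cases, against 6.68% in flat middle bins and 1.02% of all bins. Valleys were called earlier in 2.51% of flat early and 0.924% of flat late cases, against 5.25% in flat middle bins. The flat late share was not far above the 0.637% of all bins called earlier. The difference between these shares was not tested.

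The 58 later bins formed 32 runs on 14 chromosomes, and the 32 earlier bins 23 runs on 12 chromosomes. No stretch of flat middle bins held calls of both directions. Since the rule holds the mean near 0 and calls need a difference of about 1, the group means of called bins fall to either side of the middle, and the class changes restate this. Of the later bins, 31 scored early (above 0.5) and 27 middle in the control mean, while 42 scored late (below -0.5) and 16 middle with auxin, and 15 crossed from early to late. Among the earlier bins, 16 were late and 16 middle in controls, 23 were early and 9 middle with auxin, and 7 crossed from late to early. Chromosome 12 held 14 of the later bins among its 84 flat middle bins (16.7%), 6 of them in 1 run, while 38 of all its 1863 bins (2.04%) moved later.

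The largest mean shift to later replication was in 100 kb over Dapk1, which encodes a calmodulin-regulated kinase linked to cell death, on chromosome 13 (60550001 to 60650000). Its scores were -0.64 and -0.59 with auxin and 1.01 and 0.82 in controls. All auxin values lay far below the controls, with a difference of -1.53 (limma adjusted p 0.0271 and 0.0312 in its bins). Both bins were local peaks of the mean profile. Further along chromosome 13 (109250001 to 109300000), the bin in Pde4d, a cAMP phosphodiesterase gene, scored -0.33 and -0.91 with auxin against 0.64 and 1.18. The groups did not overlap, but each was spread widely, and the difference was -1.53 ± 0.27 (SE, adjusted p = 0.0410).

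On chromosome 12 (12200001 to 12500000), 6 adjacent bins at Cyria, whose product restrains Rac1 signalling to actin, scored -1.07 and -1.04 with auxin and 0.47 and 0.47 in controls. These means over the run nearly coincided between replicates, and the difference was -1.53 (limma adjusted p from 0.0271 to 0.0481). Single bins were less close, with auxin replicates at -0.57 and -1.23 in the first bin. Of these bins, 2 were valleys, 1 was a peak and 3 were level with 1 flank only, so most were not peaks. A gene-dense run on chromosome 8 (31100001 to 31200000) held the ubiquitin ligase gene Rnf122, Tti2, a partner of the kinase maturation factor TELO2, the ribosome biogenesis gene Mak16 and the fucosyltransferase gene Fut10. It scored -0.77 and -0.81 with auxin against 0.55 and 0.87, a local peak with a difference of -1.50 (adjusted p 0.0312 and 0.0401).

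Lef1, a transcription factor of the Wnt pathway, and Hadh, an enzyme of fatty acid oxidation, shared 200 kb on chromosome 3 (131050001 to 131250000) that scored -1.12 and -1.08 with auxin and 0.38 and 0.21 in controls. It was late in both auxin profiles and middle in both controls. The bin with the start of Lef1 differed by -1.56 (adjusted p = 0.0342). Nearby on the same chromosome, the bin with the ribosomal protein gene Rpl34 (130700001 to 130750000) scored -1.07 and -0.95 against 0.21 and 0.38, and fell by 1.31 (adjusted p = 0.0359).

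The next later runs had controls between 0.29 and 0.93 in each profile. At Mctp2, a membrane protein with calcium-binding C2 domains, on chromosome 7 (72100001 to 72300000), the scores were -0.66 and -0.68 with auxin against 0.62 and 0.77. Its bins included 1 peak and 1 valley. The run with the innate immune kinase gene Irak4, the actin-binding twinfilin gene Twf1 and Tmem117 on chromosome 15 (94550001 to 94700000) scored -0.94 and -1.02 against 0.29 and 0.45. A bin on chromosome 16 (78450001 to 78500000) with no protein-coding gene scored -0.49 and -0.34 against 0.92 and 0.93. These runs were late or near the late limit with auxin and middle or early in controls. Etv6, an ETS-family repressor needed in blood development, lay in a run on chromosome 6 (134050001 to 134150000) with -0.45 and -0.71 against 0.85 and 0.62. That run had 1 shoulder bin and 1 valley bin. Upp2, a uridine phosphorylase gene on chromosome 2 (58650001 to 58750000), had -0.47 and -0.60 against 0.85 and 0.62. The differences of these 5 runs were -1.37, -1.35, -1.34, -1.32 and -1.27.

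**Figure D4:**
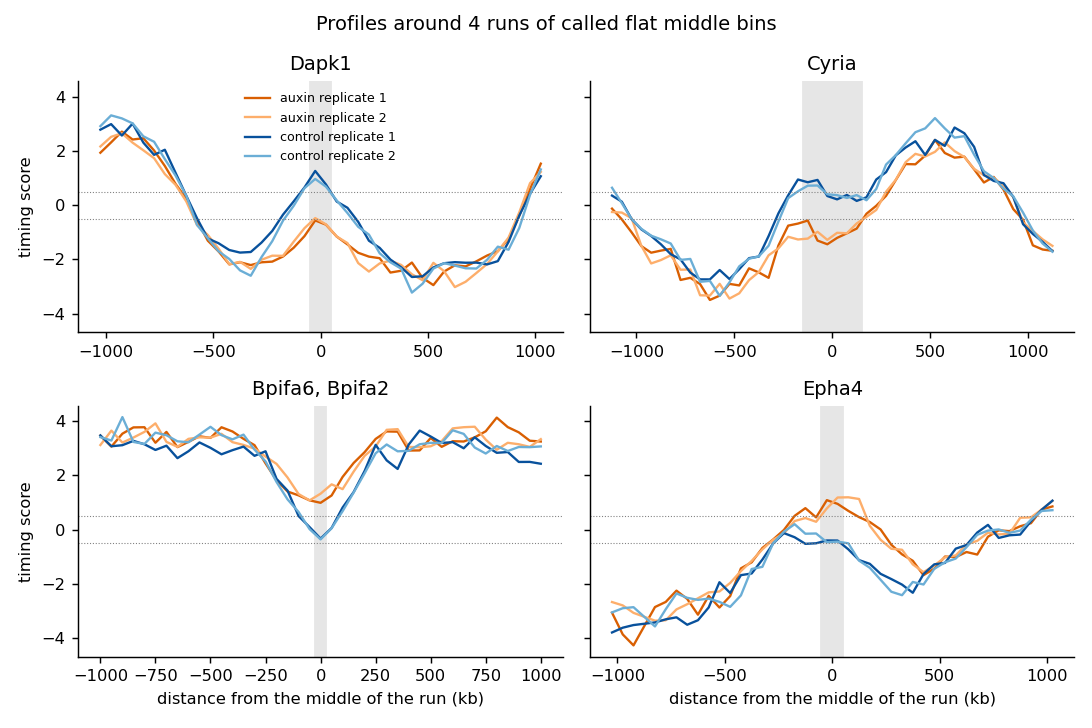
Timing score (score units, higher is earlier) against distance from the middle of the run (kb) around runs of called flat middle bins at Dapk1, Cyria, Bpifa6 and Bpifa2, and Epha4, 1 line per profile, with the run shaded and dotted lines at -0.5 and 0.5. Auxin profiles lie below controls at Dapk1 (-1.53) and Cyria (-1.53) and above them at Bpifa6 and Bpifa2 (1.50) and Epha4 (1.43).

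Among earlier shifts, the largest was in the bin with Bpifa6 and Bpifa2 on chromosome 2 (154000001 to 154050000), members of a cluster of secreted lipid-binding proteins of mouth and airways. It scored 0.99 and 1.33 with auxin and -0.33 and -0.36 in controls, higher by 1.50 ± 0.22 (SE, adjusted p = 0.0320). The groups were far apart, and the bin was a valley of the mean profile. The ephrin receptor gene Epha4, known for axon guidance, lay in 100 kb on chromosome 1 (77450001 to 77550000) that scored 1.02 and 0.99 with auxin and -0.40 and -0.45 without. These means over the run nearly coincided between replicates, and the difference was 1.43 (limma adjusted p 0.0303 and 0.0355). Single bins were less close with auxin, at 1.09 and 0.79 in the first bin. Here 1 bin was a peak of the mean profile and 1 was level with 1 flank only, so neither was a valley.

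Earlier replication was also called in stretches without protein-coding genes. On chromosome 11 (35000001 to 35100000) the scores were 0.61 and 0.43 with auxin and -0.68 and -0.87 in controls, a difference of 1.298. Slit3, a secreted guidance ligand that starts in the next bin, had 0.56 and 0.38 against -0.18 and -0.63 and did not pass the test (adjusted p = 0.0733). On chromosome 5 (119050001 to 119150000) the gene-free valley scored 0.42 and 0.59 against -0.56 and -0.92, a difference of 1.25. In both stretches the auxin values were above all control values.

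The remaining named earlier runs differed by 1.13 to 1.16. Smyd3, a lysine methyltransferase gene on chromosome 1 (179100001 to 179150000), scored 0.68 and 1.02 with auxin against -0.39 and -0.23. Phkb, a subunit of phosphorylase kinase in glycogen breakdown, on chromosome 8 (86000001 to 86050000), had 0.22 and 0.11 against -0.75 and -1.23. At Fstl4, a follistatin-like gene on chromosome 11 (52800001 to 52900000), the values were 0.43 and 0.43 against -0.64 and -0.79. Groups were apart at all of these genes, and Fstl4 was a valley. Klf7, a Krüppel-like transcription factor gene on chromosome 1 (64100001 to 64150000), had 0.35 and 0.68 against -0.78 and -0.47. The ferlin gene Fer1l6 on chromosome 15 (58550001 to 58650000) scored 0.76 and 0.83 against -0.21 and -0.48. Tmem108, a transmembrane protein of neurons, lay in 150 kb on chromosome 9 (103650001 to 103800000) with 0.70 and 0.75 against -0.40 and -0.42. Fer1l6 and Tmem108 were valleys in all of their called bins.

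**Figure D5:**
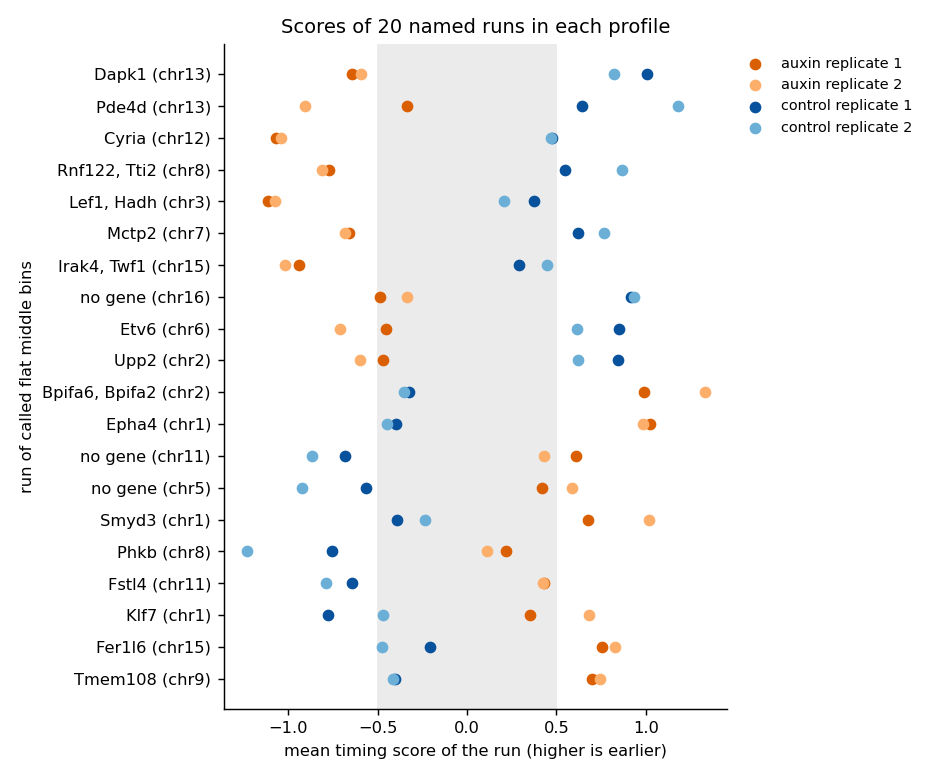
Mean timing score (score units, higher is earlier) of the 10 named later runs and 10 named earlier runs in each of the 4 profiles, with the band from -0.5 to 0.5 shaded. The groups do not overlap in any of the 20 runs, which were picked by the size of this difference.

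Genes of 24 lists were looked up in the flat middle bins, where 614 of 16162 placed protein-coding genes (3.80%) start, 19 of them (3.09%) in bins that moved later and 7 (1.14%) in bins that moved earlier, against 0.928% and 0.427% of all placed genes. Among signalling ligands and their antagonists, Bmp4, Bmp10, Gdf7, Cer1 and Mstn made up 5 of 35 genes of the TGF-beta, activin and BMP list (14.3%). None was called: Bmp4, which patterns mesoderm, scored -0.82 and -0.27 with auxin and 0.024 and -0.14 in controls, and Bmp10, a heart ligand, 0.18 and 0.37 against -0.040 and -0.26. Groups were apart at both, in opposite directions. The Wnt list had 2 of 35 genes, Lef1, which fell as above, and the R-spondin receptor gene Lgr4, with 0.25 and 0.48 against -0.18 and 0.082. No gene of the FGF (19 genes) or Hedgehog and Notch (26 genes) lists starts in a flat middle bin.

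Of 73 lineage transcription factor genes, 3 start in flat middle bins. Foxa1, a pioneer factor of endoderm, scored -0.88 and -1.16 with auxin and 0.30 and 0.16 in controls (chromosome 12, 57500001 to 57550000), and fell by 1.25 (limma adjusted p = 0.0410). Pax6, a regulator of eye and brain, had -0.020 and 0.013 against 0.46 and 0.49, and Irx3 had 0.15 and 0.39 against 0.40 and 0.093. Pax6 was lower in both auxin profiles without passing the test (adjusted p = 0.212), and Irx3 overlapped. Guidance genes gave 3 of 55, with the start of Epha4 earlier by 1.49 and Slit3 and Epha1 not called. None of 18 placed pluripotency genes, 22 Hox genes or 13 CTCF and cohesin genes starts in a flat middle bin.

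Imprinted genes gave 6 of 30 placed genes, Slc22a3, Zim1, Igf2, Peg3, Usp29 and Dlk1, against 3.80% of all placed genes, and none was called. Zim1, Peg3 and Usp29 are neighbours on chromosome 7, and the last 2 start in the same bin, so the genes do not count as separate places. Igf2, a fetal growth factor, scored -0.051 and 0.31 with auxin and 0.12 and -0.16 in controls, and the groups overlapped. Slc22a3 had -0.36 and -0.23 against -0.54 and -0.81 (adjusted p = 0.338). Zim1 had -0.39 and -0.046 against -0.42 and -0.73 (adjusted p = 0.396). The score joins both parental copies, so a difference between them would not be seen.

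Ribosomal protein genes gave 6 of 64 (9.38%), of which Rpl34 fell and Rpl15 was next, with -0.31 and 0.056 against 0.66 and 0.66 (adjusted p = 0.0857). All 6 had lower means with auxin, but the groups overlapped at Rpl22l1 and Rps24 (differences of -0.22 and -0.053), and only Rpl34 passed the test. Several clustered families had higher median scores with auxin, without any call. The 5 cytochrome P450 genes of 75 were led by Cyp2a4 (0.92 and 0.72 against -0.069 and -0.12, adjusted p = 0.0552), the 5 vomeronasal receptors of 205 by Vmn2r111 (0.35 and -0.056 against -0.67 and -0.87, adjusted p = 0.0654). Of the Zfp genes, 7 of 313 start in flat middle bins, with Zfp947 on chromosome 17 at 0.75 and 0.50 against -0.21 and -0.38 (adjusted p = 0.0587). The keratin-associated genes Krtap5-3 and Krtap5-5 share a bin at 0.83 and 0.53 against 0.20 and -0.11, and 4 of 84 keratin genes in all start in flat middle bins. The medians of the differences were 0.70 for the cytochrome P450 genes, 0.62 for the vomeronasal, 0.52 for the zinc finger and 0.60 for the keratin genes, against -0.054 over all 614 genes. Genes of a cluster share bins or lie side by side, and near-identical copies can share reads, so these are few and uncertain places. Of the 7 Zfp genes, 6 lie on chromosome 17 from 22150001 to 22900000, as do Vmn2r111 and Vmn2r112, so both families are partly the same place. Zfp62, on chromosome 11, was lower in both auxin profiles, with -0.32 and -0.034 against 0.12 and 0.049 (adjusted p = 0.514). Olfactory receptors gave 19 of 815, with Olfr531 and Olfr532 in 1 bin at -0.23 and 0.14 against -0.75 and -0.83 (adjusted p = 0.0979).

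The other lists had few genes in flat middle bins. The replicative helicase gene Mcm3 scored 0.23 and -0.22 with auxin and 0.77 and 0.29 in controls, apart but not called (adjusted p = 0.256). Of 34 voltage-gated channel genes, Kcnc4 had 0.41 and 0.69 against -0.028 and -0.089, and Kcnc1 had 0.15 and 0.19 against -0.043 and -0.45. Both potassium channel genes were higher in both auxin profiles, with adjusted p of 0.140 and 0.315. The scaffold gene Magi1 and the phosphodiesterase gene Pde11a had adjusted p of 0.610 and 0.607. Of 299 solute carrier genes, 10 start in flat middle bins, with Slc35f3 at 0.24 and 0.26 against -0.22 and -0.52 at its start (adjusted p = 0.138) and Slc18b1 at -0.18 and 0.062 against 0.13 and 0.57 (adjusted p = 0.344). Another bin inside Slc35f3, on chromosome 8 (126200001 to 126250000), scored 0.55 and 0.31 against -0.58 and -0.62 and moved earlier by 1.03 (adjusted p = 0.0471). None of the 30 collagen genes or 21 ionotropic glutamate and GABA receptor genes starts in a flat middle bin, and none of the 57 clustered protocadherin genes was placed.

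Some long runs had nearly equal means in both groups. Among runs of 4 or more bins, the smallest difference, -0.0028, was in 400 kb on chromosome 10 (23750001 to 24150000), with the ribosomal gene Rps12, the pantetheinase genes Vnn1 and Vnn3 and the trace amine receptor genes Taar1 to Taar4. It scored -0.21 and -0.028 with auxin and -0.17 and -0.069 without, so the groups overlapped. Its bins went both ways, with differences from -0.40, at Rps12, to 0.24. The Phf11 genes and the histone methyltransferase gene Setdb2 lay in 400 kb on chromosome 14 (59250001 to 59650000) with 0.11 and 0.061 against 0.11 and 0.074. Gsdme, a pore-forming gasdermin, and Osbpl3 on chromosome 6 (50200001 to 50550000) had -0.20 and -0.35 against -0.19 and -0.33. At Cited2, a transcriptional co-regulator of heart development, and Heca on chromosome 10 (17700001 to 18150000), the values were 0.040 and -0.030 against 0.095 and -0.052. These runs were picked as the 4 with the least difference, and their single bins differed by -0.47 to 0.48, so near-equal means do not show that every bin held its score. Over the 169 runs of 4 or more bins the difference ranged from -1.53 to 0.99, and 68 had both auxin profiles below both controls and 65 above. Among all single bins the shares were 26.1% below and 26.4% above. Runs of other bins were not counted, so no like share stands beside the counts of runs.

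Of the authors' deposited lists, 1 gives 63 regions that moved from early to late and another of 22 that moved from late to early, drawn from these same profiles. The first covered at least 50% of 32 flat middle bins in 19 of its regions, which is 19.2% of the 167 bins covered and 1.70% of the flat middle bins. The second covered 7 bins in 5 of its regions, 11.3% of 62 covered bins and 0.371% of the flat middle bins. Of steep middle bins, the first list covered 0.815% and the second 0.461%, so the second covered a larger share of steep bins. Flat middle bins were 1886 of all 42710 bins. All 32 flat middle bins of the first list were called later here, and all 7 of the second earlier. The lists and the calls use the same scores, so this is no separate support.

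At the edges of the rule, the flat bins with the highest mean score had 0.4997 and 0.49996, and the nearest left out above the limit 0.5011 and 0.5025. At the lower limit, -0.4989 and -0.4982 were inside and -0.5007 and -0.5001 outside. The steepest bins taken in had slopes of 3.994 and -3.997 per Mb, and the nearest left out had -4.001 per Mb.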

How the data were processed

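The 8 Repli-seq libraries (early and late S phase, 2 replicates, with and without auxin) were joined by the authors into 4 profiles. The deposited table holds a timing score per window, and per the file headers the authors had made the columns' distributions equal by quantile normalization. The tools named, per the submitters' processing notes, are Bowtie2, SAMtools and bedtools, and the build is mm10. Not given in the sources used here are versions, filters, smoothing, and the formula and log base of the score. Column names gave each profile's group and replicate, and none was left unmapped. Depth is unknown, so no counting interval was set.

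Scores were averaged in 50-kb bins with at least 3 windows. The difference between auxin and control was fitted with limma 3.58.1 in R 4.3.3 (lmFit and eBayes, no trend, not robust, treatment only) over all such bins, with Benjamini-Hochberg adjusted p under 0.05. Values per profile were compared with a two-sided exact permutation test over the 4 profiles. The fit was also run on simulated data, with separate noise in each bin and shifts in scattered single bins. Many real called bins lie side by side, so the simulation does not bear on the calls here. Gene positions and promoters came from RefSeq tables of GRCm38.p6, the same build as mm10. A start was given for 17492 of 21900 protein-coding genes, and for 16162 it lay in a scored bin. The rest were not placed here, among them all genes of chromosome 18, where no start was given. That chromosome held 56 flat middle bins, 2 of them called later. The alternatives were other variance models, bin sizes, grids, limits, bin values and sets of bins, a replicate block and each profile left out. The bins, lists and alternatives were chosen with earlier results of these data known.

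Named were the 10 runs of called bins with the largest mean difference in each direction, 1 Mb or more apart, the 8 longest runs (1 is not reported here), the 4 runs of 4 or more bins with the smallest difference, up to 4 genes a run, the 2 genes with the largest difference of each list, and the 2 bins on either side of each limit. The other list genes given with values, the called bins at Elmo1 and Slc35f3 and the peak and valley limits were chosen after their values were seen.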

Additional observations from a re-analysis of the deposited data

How the results depend on the processing

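The 2 profiles per group limit the precision, and depth is unknown. Against 58 later and 32 earlier of 1886 flat middle bins (3.08% and 1.70%), trended and robust limma gave 264 and 212, the replicate block 115 and 88, bins with 5 or more windows 113 and 89, the median of windows 30 and 5, a slope limit of 2 per Mb 36 and 19 of 986 (3.65% and 1.93%), middle limits of -0.25 to 0.25 gave 26 and 21 of 946 (2.75% and 2.22%), and limits of -1 to 1 gave 106 and 56 of 3875 (2.74% and 1.45%), where the counts moved with the number of bins. With bins of fewer than 3 windows kept in the fit, limma called 0 and 0 (293 and 241 at an unadjusted p under 0.05). Bins of 100 kb gave 83 and 69 of 963 (8.62% and 7.17%). Where the fit itself changed, shares over all bins were counted only for trended and robust limma, at 5.66% and 5.17%. The other changed fits therefore have no background to be read against. Leaving out 1 profile gave 0 to 16 later and 0 to 4 earlier; 20 of the 90 calls remained without control replicate 1. Autosomal bins only, the grid moved by 25 kb, a slope limit of 6 per Mb and a difference of 1 or more kept both counts within 1.5 times.

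Peaks called later numbered 124 with trended and robust limma (19 peaks earlier), 54 with the replicate block and 0 to 7 without 1 profile, against 30. Valleys called earlier numbered 81 (15 valleys later), 40 and 0 to 2, against 18. The shape limits and their alternatives were added after the data had been seen, and other limits and distances gave 21 to 29 peaks and 12 to 19 valleys. The medians of peaks and valleys ranged from -0.35 to -0.20 and from 0.18 to 0.33 over 7 alternatives each; 4 of these leave out 1 profile, which cannot turn the sign of groups that do not overlap.

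The numbers of the replicates are not said to mark a shared culture or day. The auxin and control replicate differences correlated at 0.0895 over the flat middle bins and 0.0380 over all bins. The pairing was left out of the main fit, but these correlations cannot show whether replicates were paired. With the replicate block, 90 of the 90 calls were made again, among 115 later and 88 earlier calls. The median score turned to 0.0046 at middle limits of -0.25 to 0.25. The SD turned to 0.0012 at a slope limit of 2 per Mb and to 0.00055 at those middle limits, and without 1 profile it ranged from -0.020 to 0.014, positive without control replicate 2. The slope turned to 0.014 per Mb at a slope limit of 2 per Mb. The cause was not tested.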
